A study of Mus musculus with 12 samples.

Results

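The cytosolic heat shock chaperones considered here are 10 genes, Hspa1a, Hspa8, Hsph1, Dnajb1, Dnaja1, Bag3, Hsp90aa1, Hsp90ab1, Hspb1 and Cryab, read from the probe sets whose only gene symbol in the platform annotation is one of them. That choice gave 20 probe sets of 9 genes, out of 20380 single-symbol probe sets of 12393 genes. Hsp90ab1 had no such probe set and was not analysed here. RNA came from the CA1 subfield of the mouse hippocampus, the pyramidal cell layer best known for its sensitivity to loss of blood flow. The 4 groups were wild-type and SUMO-KD mice after sham surgery or ischemia, with 3 arrays each, and every array carried RNA pooled from 2 brains. Ischemia means 10 minutes of global forebrain ischemia followed by 3 hours of reperfusion, and the sham groups had the surgery without it. SUMO-KD mice are transgenic animals with a knockdown of SUMO, a small ubiquitin-related protein that cells join to other proteins. The promoter of the transgene, the strain and the age of the mice are not given in the sources used here.

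Chaperones hold unfolded proteins and help them refold. HSP70 proteins bind exposed stretches of a client in a cycle driven by ATP: J-domain proteins such as Dnajb1 and Dnaja1 start the cycle, and nucleotide exchange factors such as Hsph1 and Bag3 release the client. HSP90 proteins act later on partly folded clients, and small heat shock proteins such as Hspb1 and Cryab hold proteins before they aggregate. Under stress, heat shock factor 1 (HSF1), which is itself known to be modified by SUMO, binds heat shock elements, inverted repeats of the unit GAA, and raises transcription of the inducible members. Hspa8 and Hsp90ab1 are known as constitutive members, present without stress.

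The upstream sequences of members that rose after ischemia are shown where a window was available. RefSeq (GRCm38.p6) gave promoter windows, from 250 bases before to 50 bases after an annotated start, for 6 of the 10 genes (10 windows). They were searched for 2 neighbouring heat shock units, GAANNTTC or TTCNNGAA, each of which reads the same on both strands, so that both strands were covered. At least 1 match was found in 5 of the 6 genes and in 6 of the 10 windows, against 15.1% of all 32851 windows and 17% of the 27025 genes. Hspa8, Hsp90aa1, Hsp90ab1 and Cryab had no window, and the 6 genes with one had the largest rises. The members were chosen as heat shock genes, so a high share of such units was to be foreseen. These shares are a description and test no cause of the rises. The sequences run 5′ to 3′ on the strand of the gene, with matches in capitals.
Hspa1a (chr17:34972157-34972406, minus strand): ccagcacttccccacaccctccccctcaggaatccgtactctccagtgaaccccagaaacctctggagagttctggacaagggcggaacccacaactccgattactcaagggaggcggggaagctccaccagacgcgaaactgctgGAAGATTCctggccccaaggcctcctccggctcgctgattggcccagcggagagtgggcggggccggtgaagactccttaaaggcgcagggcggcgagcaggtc
Hspb1 (chr5:135887669-135887918, plus strand): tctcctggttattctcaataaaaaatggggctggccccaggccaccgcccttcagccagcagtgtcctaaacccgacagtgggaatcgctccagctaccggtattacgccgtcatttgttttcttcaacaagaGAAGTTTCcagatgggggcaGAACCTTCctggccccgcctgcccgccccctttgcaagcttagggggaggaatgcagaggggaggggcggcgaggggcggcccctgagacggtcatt
Hsph1 (chr5:149636337-149636586, minus strand): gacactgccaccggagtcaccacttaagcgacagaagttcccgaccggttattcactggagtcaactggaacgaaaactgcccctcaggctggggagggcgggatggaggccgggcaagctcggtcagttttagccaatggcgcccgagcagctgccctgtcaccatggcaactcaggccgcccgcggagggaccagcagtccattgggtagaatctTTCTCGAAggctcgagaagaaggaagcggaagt
Dnaja1 (chr4:40722218-40722467, plus strand): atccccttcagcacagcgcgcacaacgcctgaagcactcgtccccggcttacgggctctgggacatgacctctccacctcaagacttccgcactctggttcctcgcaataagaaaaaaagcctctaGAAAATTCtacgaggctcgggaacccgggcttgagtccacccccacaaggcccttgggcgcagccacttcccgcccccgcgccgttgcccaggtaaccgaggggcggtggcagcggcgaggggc

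In the Hspa1a window the match began 104 bases before the start, and the Hspb1 window held matches that began 117 and 97 bases before it. The Dnaja1 match, 124 bases before the start, was in 1 of the 3 windows listed for that gene. Hsph1 had a match 33 bases before its start and, inside the transcribed part, 3 units in a row (TTCNNGAA followed by NNTTC) that began at base 37 of the transcript. Such runs of 3 units (this one or GAANNTTC followed by NNGAA, both searched over both strands, since each is the reverse complement of the other) were found in 0.603% of all windows. The Hsph1 run and the only match in the Bag3 window, which began at base 43 of the transcript, are printed with their flanks.
Hsph1 (chr5:149636287-149636312, minus strand): aaatgctgcagaTTCTGGAAAGTTCt
Bag3 (chr7:128523607-128523632, plus strand): gttctctggatgggaccaGAAGTTTC
Neither window of Dnajb1 held these letters. A match is a description of the letters and does not show that a factor bound there.

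The arrays were of like brightness, with median intensities from 141 to 162, and precision is bounded by there being 3 arrays a group. Sumo3, a target of the knockdown, ranged from 2247 to 3518 on wild-type arrays and from 1337 to 1936 on SUMO-KD arrays, and the other SUMO genes were not analysed here. The 5′ control for 18S ribosomal RNA ranged from 4194 to 6528 on the 6 sham arrays and from 1275 to 1660 on 5 ischemia arrays, but was 4127 on SUMO-KD ischemia replicate 2. The 3 measured CA1 markers (Wfs1, Pou3f1, Man1a; 6 were listed) summed to 5048 to 7227 after sham surgery and 3102 to 4066 after ischemia in wild-type, and to 2806 to 3850 and 3063 to 3536 in SUMO-KD. The 4 measured dentate granule cell markers summed to 4162 to 5751 and 3404 to 3810 in wild-type and to 6343 to 8106 and 5028 to 5739 in SUMO-KD, so that the sham groups of the genotypes did not overlap in either list. The part of these differences in the results on genotype was not tested, and in such bulk tissue fewer cells of a type and less RNA per cell cannot be told apart.

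Ischemia raised most of the measured chaperone genes in both genotypes. In wild-type CA1, 7 of 9 genes rose and 0 fell, while of all genes 9.59% rose and 8.88% fell, 18.5% in all (limma, Benjamini-Hochberg adjusted p under 0.05, group means of log2(intensity + 32)). In SUMO-KD CA1, 8 of 9 rose and 0 fell, while of all genes 6.08% rose and 4.62% fell, 10.7% in all. The median log2 change of the 9 genes was 1.24 in wild-type and 1.33 in SUMO-KD, while the median of all genes was −0.04 and −0.02. All 9 genes passed a filter on dim genes. The 3 ischemia arrays lay above the 3 sham arrays for 7 wild-type and 8 SUMO-KD genes, a pattern seen for 15.6% and 13.9% of all genes, and below them for 0 genes in each (19.5% and 15.9% of all genes). The rises spanned a wide range, from 12.3-fold for Hspa1a to 1.22-fold for Hsp90aa1 in wild-type, on the offset scale. Without SUMO-KD ischemia replicate 2, the array whose 18S control lay near the sham arrays, 6 genes rose in SUMO-KD.

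**Figure D1:**
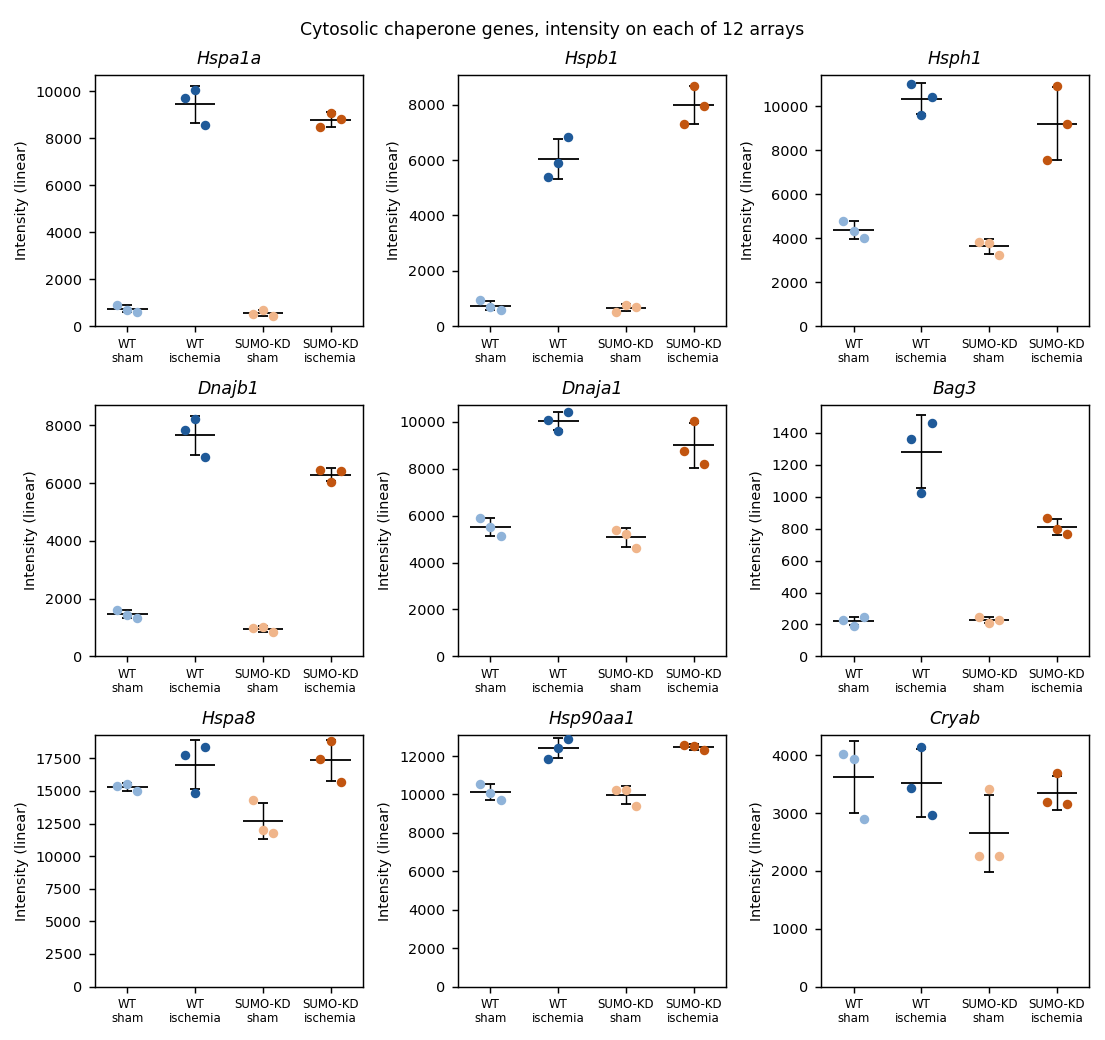
Linear intensity (vertical axes, from 0, one scale per gene) of the 9 measured chaperone genes on each of 12 arrays, as points by group (WT, wild-type), with the group mean as a line and the SD as a bar (n = 3 arrays). Hspa1a, Hspb1, Dnajb1, Bag3, Hsph1 and Dnaja1 are higher on every ischemia array than on every sham array, while the Cryab groups overlap.

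Among the HSP70 proteins, Hspa1a, the stress-inducible form, had the largest rise of the 9 genes. Wild-type arrays held 915, 695 and 622 after sham surgery and 9707, 10065 and 8565 after ischemia. SUMO-KD arrays held 538, 707 and 442 after sham surgery and 8495, 9101 and 8807 after ischemia. The ischemia arrays stood far above all sham arrays in both genotypes, and those of the genotypes overlapped each other. The log2 rise was 3.63 in wild-type (SE 0.17, adjusted p = 3.42e-07 by limma) and 3.92 in SUMO-KD (adjusted p = 1.91e-07), the fourth largest of all genes tested in each genotype.

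Hspa1b is a neighbouring copy of Hspa1a whose 250 upstream bases match those of Hspa1a at 247 positions without gaps, and the probes may not separate the transcripts. Its 3 probe sets rose by 3.52, 3.15 and 2.35 in wild-type and by 4.21, 3.98 and 2.73 in SUMO-KD. All 3 passed in each genotype (largest adjusted p = 0.0002, limma over all probe sets).

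Hspa8, the constitutive HSP70, was measured by 4 probe sets that gave different sizes of change. Its brightest probe set, used for the gene, held 15367, 15556 and 14996 in wild-type sham and 17769, 14852 and 18378 in wild-type ischemia arrays, so these groups overlapped. In SUMO-KD it held 14289, 12021 and 11771 after sham surgery and 17429, 18867 and 15717 after ischemia, without overlap. The change was 0.15 in wild-type (95% interval −0.10 to 0.39, adjusted p = 0.422) and 0.45 in SUMO-KD (SE 0.11, adjusted p = 0.0252, limma). This probe set ranked between 1 and 48 in brightness among the 22690 probe sets and was the brightest of all on 2 arrays, near the top of the range of the arrays.

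The other Hspa8 probe sets gave larger values in wild-type, and 2 of the 3 did so in SUMO-KD. In wild-type, the dimmest of them held 284, 325 and 301 after sham surgery and 555, 932 and 869 after ischemia, a rise of 1.25 (adjusted p = 0.0138 over all probe sets). In SUMO-KD it rose by 1.61 (adjusted p = 0.00575), from 248, 204 and 99 to 536, 460 and 851. The second brightest rose by 0.30 and 0.50 (adjusted p = 0.0304 and 0.00376), and the remaining one gave 1.07 and 0.41 without passing (adjusted p = 0.052 and 0.549). With the mean of its probe sets Hspa8 passed in wild-type (0.69, adjusted p = 0.00255). In SUMO-KD the brightest probe set no longer passed when sham replicate 2 (adjusted p = 0.087) or 3 (0.0885) or ischemia replicate 1 (0.0552) or 2 (0.105) was left out, under quantile normalization (0.0899) or with only the compared groups fitted (0.0614). With _x_at and _s_at probe sets left out, Hspa8 was read from another probe set and had 0.41 in SUMO-KD (adjusted p = 0.523).

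Hsph1 encodes HSP110, a nucleotide exchange factor that also holds clients. It held 4795, 4317 and 4015 in wild-type sham and 10997, 9580 and 10425 in wild-type ischemia arrays. SUMO-KD arrays held 3823, 3797 and 3245 after sham surgery and 7548, 10899 and 9169 after ischemia. Every ischemia array exceeded every sham array, with a rise of 1.24 in wild-type (SE 0.13, adjusted p = 0.000115, limma) and 1.33 in SUMO-KD (adjusted p = 0.0001). The second probe set of Hsph1 gave larger values, 1.83 and 1.65.

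The J-domain genes both rose. Dnajb1, the J-domain partner of inducible HSP70, held 1623, 1432 and 1333 in wild-type sham and 7842, 8233 and 6905 in wild-type ischemia arrays. SUMO-KD arrays held 986, 1012 and 835 after sham surgery and 6456, 6038 and 6407 after ischemia. The SUMO-KD arrays lay below the wild-type arrays of the same surgery in both cases. Dnajb1 rose by 2.36 in wild-type (SE 0.11, adjusted p = 3.42e-07) and by 2.70 in SUMO-KD (adjusted p = 1.91e-07, limma), and its second probe set by 2.43 and 2.46.

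Dnaja1, a J-domain protein with a broad set of clients, changed less. It held 5918, 5505 and 5137 on wild-type sham and 10066, 9624 and 10422 on wild-type ischemia arrays. SUMO-KD arrays held 5390, 5196 and 4618 after sham surgery and 8752, 10038 and 8194 after ischemia. All ischemia arrays lay above all sham arrays. The rise was 0.86 in wild-type (SE 0.10, adjusted p = 0.000196) and 0.82 in SUMO-KD (adjusted p = 0.000375, limma), and its second probe set gave 0.89 and 0.80.

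Bag3 links HSP70 to small heat shock proteins and to autophagy. Wild-type arrays held 225, 193 and 244 after sham surgery and 1362, 1023 and 1460 after ischemia. SUMO-KD arrays held 245, 210 and 226 after sham surgery and 866, 801 and 766 after ischemia. The sham groups overlapped, whereas all 3 SUMO-KD ischemia arrays lay below all 3 wild-type ischemia arrays. Bag3 rose by 2.37 in wild-type (SE 0.13, adjusted p = 9.95e-07) and by 1.70 in SUMO-KD (adjusted p = 1.47e-05, limma).

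Hsp90aa1, the inducible cytosolic HSP90, rose slightly. Its brightest probe set held 10563, 10092 and 9733 on wild-type sham and 11871, 12421 and 12916 on wild-type ischemia arrays. In SUMO-KD it held 10238, 10240 and 9405 after sham surgery and 12560, 12543 and 12300 after ischemia. The ischemia arrays lay above the sham arrays without overlap. The change was 0.29 in wild-type (SE 0.08, adjusted p = 0.0222) and 0.32 in SUMO-KD (adjusted p = 0.0203, limma). The wild-type call was lost without wild-type sham replicate 2 (adjusted p = 0.0512) or 3 (0.0787) or wild-type ischemia replicate 2 (0.0511) or 3 (0.0698). In SUMO-KD it did not pass once sham replicate 3 (0.0778) or ischemia replicate 2 (0.0668) or 3 (0.0569) was omitted. Under quantile normalization the SUMO-KD value was 0.22 (adjusted p = 0.165), and with only the compared groups fitted neither genotype passed (0.079 in wild-type, 0.0623 in SUMO-KD). The dimmer Hsp90aa1 probe sets gave 0.55 and 0.57 in wild-type and 0.65 and 0.65 in SUMO-KD, and each passed.

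The small heat shock genes differed from each other. Hspb1 (HSP27 in humans), an inducible member, held 932, 696 and 600 in wild-type sham and 5396, 5884 and 6824 in wild-type ischemia arrays. SUMO-KD arrays held 523, 782 and 707 after sham surgery and 7313, 8681 and 7969 after ischemia, all above the wild-type ischemia arrays. Hspb1 rose by 2.99 in wild-type (SE 0.17, adjusted p = 1.38e-06) and by 3.53 in SUMO-KD (adjusted p = 8.33e-07, limma), and its second probe set by 3.11 and 3.78.

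Cryab, alpha B-crystallin, is abundant in oligodendrocytes and astrocytes. It held 4017, 3938 and 2904 on wild-type sham and 3434, 4146 and 2976 on wild-type ischemia arrays. In SUMO-KD it held 2267, 3423 and 2267 after sham surgery and 3186, 3687 and 3162 after ischemia. The groups overlapped in both genotypes, and neither change passed (−0.04, 95% interval −0.44 to 0.37, adjusted p = 0.921 in wild-type, and 0.36, −0.05 to 0.76, adjusted p = 0.274 in SUMO-KD, limma). A second bright probe set gave 0.01 and 0.44, and the third, with 1.20 to 35.4, was at background. On that second probe set the SUMO-KD ischemia arrays lay above all SUMO-KD sham arrays without passing (adjusted p = 0.1, limma over all probe sets). The 7 measured oligodendrocyte markers summed to 36191 to 40456 and 33408 to 37859 in wild-type and to 33477 to 37795 and 37761 to 39835 in SUMO-KD, sham before ischemia, and their part in the Cryab values was not tested.

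**Figure D2:**
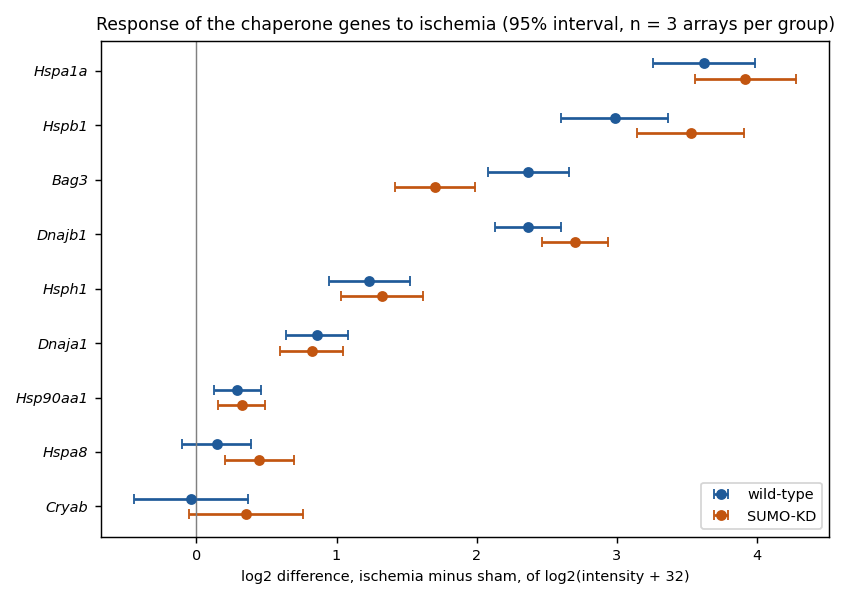
Log2 difference between ischemia and sham arrays (horizontal axis, on the log2(intensity + 32) scale) of each chaperone gene in wild-type and SUMO-KD CA1, with the 95% interval of the limma fit, n = 3 arrays per group. The changes run from 3.63 (Hspa1a) to −0.04 (Cryab) in wild-type, and Bag3 is the gene whose intervals in the genotypes do not overlap.

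Of the 20 probe sets, 15 rose in wild-type and 16 in SUMO-KD when each was tested by itself, and 0 fell, against 15.4% and 8.4% of all probe sets called in either direction. Between the genotypes 1 of the 20 passed in sham (Dnajb1; 1.27% of all probe sets), 0 after ischemia (0.981%) and 0 for the difference in response (0.00884%) in limma's test. At an unadjusted p under 0.05 these were 8, 6 and 4 of the 20, beside 12.5%, 13.6% and 5.93% of all probe sets. Probe sets of 1 gene share its RNA and are not independent. For Hspb1, Dnajb1 and Dnaja1 they gave like sizes, whereas for Hspa8, Hsp90aa1 and Hsph1 the brightest probe set gave the smallest or nearly the smallest change.

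**Figure D3:**
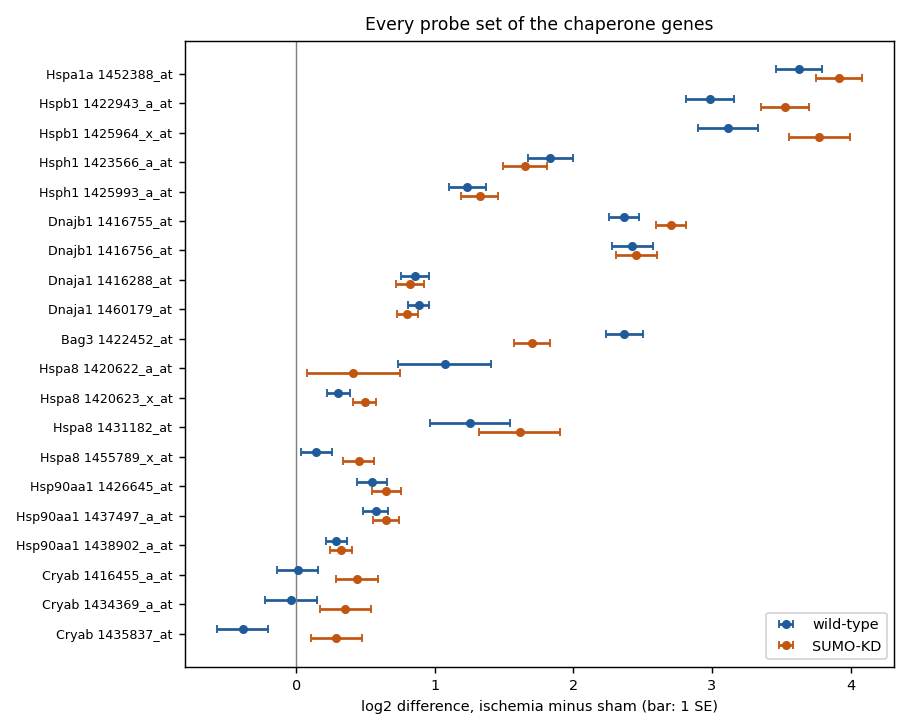
Log2 difference between ischemia and sham arrays (horizontal axis) for every probe set of the chaperone genes, with 1 SE as a bar, in wild-type and SUMO-KD CA1 (n = 3 arrays per group). The 4 Hspa8 probe sets spread from 0.15 to 1.25 in wild-type, while the Dnajb1 probe sets lie close together at 2.36 and 2.43.

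The design also asked whether the knockdown changed these levels. In sham CA1, 1 of 9 genes was lower in SUMO-KD, against 0.597% of all genes that were lower, and 0 were higher (1.5% of all genes, 2.1% in either direction). The SUMO-KD arrays lay below the wild-type arrays for 3 of 9 genes, Dnajb1, Hsph1 and Hspa8, beside 9.67% of all genes, and above them for 0 (11%). It was Dnajb1, with a log2 difference of −0.61 (SE 0.11, adjusted p = 0.0124, limma), from a mean of 1463 ± 147 in wild-type to 944 ± 95.4 in SUMO-KD (SD, n = 3 pools). Its second probe set gave −0.44 without overlap of the groups (adjusted p = 0.235 over all probe sets). The Dnajb1 call was lost without wild-type sham replicate 1 (−0.54, adjusted p = 0.0662) or SUMO-KD sham replicate 3 (−0.53, 0.0625), with the mean of its probe sets (−0.53, 0.0541) and when the sham groups alone were fitted (0.0669). Of the other 8 genes, 7 had values from −0.46 (Cryab) to −0.02 (Hsp90aa1) and Bag3 had 0.04, none of which passed. The median over the 9 genes was −0.27, beside −0.01 for all genes.

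After ischemia, 1 of 9 genes was lower in SUMO-KD than in wild-type, against 0.557% of all genes that were lower, and 0 were higher (1% of all genes, 1.56% in either direction). The SUMO-KD arrays lay below the wild-type arrays for 2 of 9 genes, Bag3 and Dnajb1 (8.9% of all genes), and above them for 1, Hspb1 (11.3%). Bag3 was lower by 0.63 on the log2 scale (value −0.63, SE 0.13, adjusted p = 0.0388, limma), with means of 1282 ± 229 and 811 ± 51.1 (SD, n = 3 pools). This call was close to the threshold. It was lost without any one of the 3 SUMO-KD sham arrays (adjusted p from 0.0549 to 0.0588), the 3 SUMO-KD ischemia arrays (0.0852 to 0.156), wild-type sham replicate 1 (0.0622) or wild-type ischemia replicate 1 (0.136) or 3 (0.114), and over these omissions the difference lay between −0.67 and −0.53. Hspb1 was 0.41 higher with no overlap (95% interval 0.02 to 0.79, adjusted p = 0.293), and Dnajb1 had −0.28 with no overlap (−0.51 to −0.04, adjusted p = 0.245). On their second probe sets the groups overlapped, with 0.34 for Hspb1 and −0.41 for Dnajb1 (adjusted p = 0.549 and 0.252, limma over all probe sets). The remaining 6 genes had values between −0.18 (Hsph1) and 0.03 (Hspa8). The second Hsph1 probe set gave −0.38 without overlap of the groups (adjusted p = 0.327, limma over all probe sets). The markers of CA1 and of dentate granule cells given above differed between the genotypes in the sham groups, and of these lists Calb1 was also higher in SUMO-KD after ischemia (0.86, adjusted p = 0.00148). The astrocyte markers Gfap (0.59) and Aqp4 (0.52) were higher in SUMO-KD sham, where the astrocyte sums did not overlap between genotypes. Of the 10 measured neuronal markers Nefm alone passed after ischemia, lower in SUMO-KD (−0.47). The neuronal values ran from −0.47 to 0.41 with a median of −0.10, and 3 were above 0. Nefm itself rose with ischemia, by 0.81 in wild-type and 0.57 in SUMO-KD. The part of these markers in the Dnajb1 and Bag3 differences was not tested.

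The difference between the genotypes in the response to ischemia passed for 0 of 9 chaperone genes in limma's test, and for 0.0161% of all genes. At an unadjusted p under 0.05 it was 3 of 9, beside 6.21% of all genes. Bag3 had the smallest p-value of these (unadjusted p = 0.00404, adjusted p = 0.567, limma). Its difference was −0.67 (SE 0.19), the largest in absolute size among the 9 genes, with the smaller rise in SUMO-KD. Hspb1 (0.54, unadjusted p = 0.0489) and Dnajb1 (0.34, unadjusted p = 0.0476) had the larger rise in SUMO-KD (adjusted p = 0.798 for each). For Hspa1a the difference was 0.29, with a 95% interval from −0.22 to 0.81, and for Dnaja1 −0.04 (−0.35 to 0.27), so that differences of these sizes cannot be told from 0 here.

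Within some groups many of the chaperone genes were high or low on the same array. Wild-type sham replicate 1 had the highest value of its group for 7 of 9 genes, beside 23.4% of all genes, and wild-type sham replicate 3 the lowest for 8 of 9, beside 36.1% of all genes. SUMO-KD sham replicate 3 had the lowest value for 6 of 9 genes (30.5% of all genes), and SUMO-KD ischemia replicate 2 the highest for 6 of 9 (36% of all genes). In wild-type ischemia no such array stood out, since replicate 3 was highest for 5 genes (46.9% of all genes) and lowest for 3, and replicate 2 highest for 3 and lowest for 4. The median deviation of the 9 genes from the group mean on the former 4 arrays was 0.14, −0.12, −0.13 and 0.12 on the log2 scale. These are small beside the rises of the inducible genes. They are not small beside the median of −0.27 between the genotypes in sham or the Hsp90aa1 rises of 0.29 and 0.32. The Dnajb1 call in sham was lost without wild-type sham replicate 1 or SUMO-KD sham replicate 3, which are among these arrays. GEO calls the samples biological replicates and names no litter or day of surgery, so p-values measure only how these pools vary.

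Other genes of the chaperone system were read from lists. Of 79 listed genes 70 were measured, and 15 rose and 6 fell in wild-type (of all genes, 9.59% rose and 8.88% fell). The SUMO-KD comparison gave 11 rises and 2 falls (6.08% and 4.62% of all genes), with medians of 0.01 in wild-type and 0.04 in SUMO-KD. The falls are near the background share in wild-type. The genes that rose in both genotypes were 9 of the 15 and 9 of the 11. In wild-type the rises and falls became 13 and 0 when sham replicate 1 was omitted, 13 and 4 for sham replicate 2 and 10 and 3 for sham replicate 3. Omitting a wild-type ischemia array gave 13 and 3 (replicate 1), 12 and 4 (replicate 2) or 11 and 2 (replicate 3), and the 6 falls became 4 when replicate 1 of SUMO-KD sham or replicate 3 of SUMO-KD ischemia was omitted. In SUMO-KD they became 6 and 1 or 8 and 0 when sham replicate 1 or 3 was omitted. Omitting a SUMO-KD ischemia array gave 12 and 1 (replicate 1), 6 and 0 (replicate 2) or 6 and 2 (replicate 3).

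Beside Hspa1b, 2 of the other 6 measured HSP70 and HSP110 genes rose in each genotype (9.59% of all genes in wild-type and 6.08% in SUMO-KD). Hspa14, a ribosome-associated HSP70, rose by 0.70 in wild-type (adjusted p = 0.000641) and 0.58 in SUMO-KD (0.00321). Hspa1l rose by 0.77 and 0.61 but was dim, with group means from 2.70 to 39.1. Among 14 further J-domain genes, Dnajb4, a close relative of Dnajb1, rose by 1.07 in both genotypes (adjusted p = 4.64e-05 and 7.06e-05, limma), Dnajb5 rose by 0.69 and 0.61, and Dnajc13 fell by 0.30 in wild-type and had −0.25 in SUMO-KD (adjusted p = 0.0734). Among 6 further small heat shock genes, Hspb8, a partner of Bag3, rose by 0.92 and 1.03 (adjusted p = 0.0377 and 0.0343). Hspb3 rose by 1.23 in wild-type and had 0.73 in SUMO-KD (adjusted p = 0.0991), and Hspb11, whose product acts in ciliary transport, fell by 0.43 in SUMO-KD and had −0.28 in wild-type (adjusted p = 0.0568).

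Of the 7 mitochondrial chaperones, 4 rose in wild-type and 3 in SUMO-KD (9.59% and 6.08% of all genes), and 0 fell (8.88% and 4.62%). Hspd1 and Hspe1, which encode the partners HSP60 and HSP10, rose by 1.06 and 1.07 in wild-type (adjusted p = 0.000687 and 0.000161, limma) and by 0.93 and 0.99 in SUMO-KD. They are head-to-head neighbours on chromosome 1, and a window between them held more units in a row than any member's window:
Hspe1 (chr1:55088054-55088081, plus strand): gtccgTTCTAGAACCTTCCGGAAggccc
Outside the members, only windows of Hspa1b, Hspd1, Hspe1, Dnajb4 and Hspb8 were searched, all of them genes that rose in both genotypes. Hspa1b, Dnajb4 and Hspb8 held single matches, for Dnajb4 not in every window listed, and another Hspd1 window held none. Members without a window could not be compared. Grpel1, a nucleotide exchange factor of the mitochondrial HSP70, rose by 0.52 and 0.48. Hspa9, that HSP70 itself, rose by 0.43 in wild-type (adjusted p = 0.0455) and had 0.30 in SUMO-KD.

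Co-chaperones of HSP90 and regulators of HSP70 had few calls, in both directions. Of 12 measured HSP90 co-chaperones, 1 rose and 2 fell in wild-type, beside 9.59% and 8.88% of all genes. In SUMO-KD 2 rose and 1 fell, beside 6.08% and 4.62% of all genes. The same shares apply to the lists that follow, and lists this short cannot show a direction from such counts. Unc45a, a myosin chaperone, rose by 0.83 in wild-type (adjusted p = 0.00473), while Chordc1 fell by 0.58 (adjusted p = 0.0116) and Ahsa2 fell by 0.45 (adjusted p = 0.0498). Fkbp4, an immunophilin of steroid receptor complexes, rose by 0.47 in SUMO-KD (adjusted p = 0.0477). Nudc also rose there, by 0.28, and Fkbp5 fell by 0.38, both named after their values were seen. Of 8 HSP70 regulators, St13 alone passed, with a fall of 0.48 in wild-type (adjusted p = 0.0316), and had −0.27 in SUMO-KD (adjusted p = 0.26). Of 13 genes of the TRiC chaperonin and prefoldin, 2 rose (Cct2 by 0.39, Pfdn1 by 0.27) and 2 fell (Pfdn6 by 0.29, Pfdn5 by 0.28) in wild-type, where their SUMO-KD values of 0.19, −0.14, −0.27 and −0.21 did not pass. Of the 3 measured genes of heat shock factors and their binding protein, Hsf2 rose by 0.53 in wild-type (adjusted p = 0.0203) and had 0.10 in SUMO-KD (adjusted p = 0.734). Hsf1 was not analysed here.

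**Figure D4:**
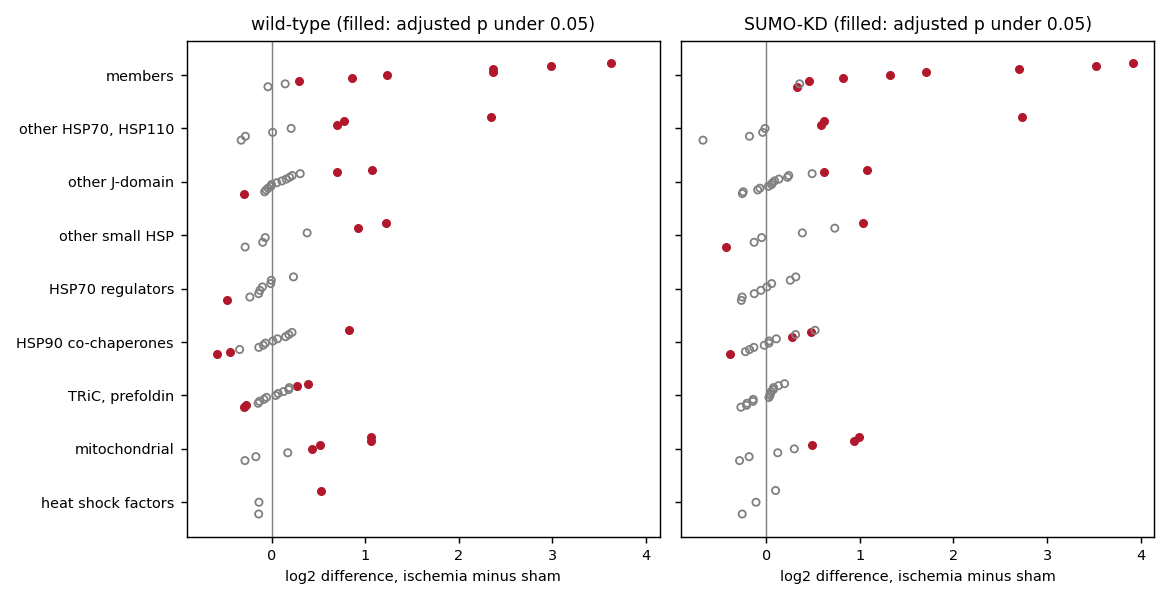
Log2 difference between ischemia and sham arrays (horizontal axis) of the 9 chaperone genes and of 8 lists of other chaperone genes, one point per gene, in wild-type (left) and SUMO-KD (right) CA1. Filled points had an adjusted p under 0.05. The rises above 2 in wild-type are those of Hspa1a, Hspb1, Bag3 and Dnajb1 among the 9 genes and of Hspa1b among the others.

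Between the genotypes, 2 of the 70 other chaperone genes passed in sham CA1 and 1 after ischemia, all higher in SUMO-KD, while 2.1% and 1.56% of all genes passed in either direction, so these counts are near the background. They were named after their values were seen. Fkbp5, an HSP90 co-chaperone gene known to respond to glucocorticoids, was 1.01 higher in sham (adjusted p = 0.000318, limma) and 0.62 higher after ischemia (adjusted p = 0.0101), with means of 994 and 2043 in sham and 1006 and 1558 after ischemia for wild-type and SUMO-KD. Hspa1l, dim as stated, was 0.42 higher in sham.

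Profiles over the 12 arrays were compared by the root mean square difference of log2 values centred per gene. The members themselves were left out of this ranking, so their closeness to each other is not given. Hspa1b, the near copy of Hspa1a, entered only through its brightest probe set, with rises of 2.35 and 2.73. Its other probe sets had larger rises (3.52 and 3.15 in wild-type, 4.21 and 3.98 in SUMO-KD) and were not ranked. The ranking therefore does not show how close Hspa1b is to Hspa1a. Among the other genes, the closest to Hspa1a were Fos (0.31), Egr2 (0.45), Ier2 (0.50), Tnfrsf12a (0.51) and Cxcl1 (0.52). Fos, Egr2 and Ier2 are immediate early genes, Tnfrsf12a encodes a TNF family receptor and Cxcl1 a chemokine. Their rises were 3.59, 3.68, 2.98, 3.10 and 3.00 in wild-type and 4.41, 3.64, 2.90, 2.85 and 2.73 in SUMO-KD. For Hspa8 the closest were Hs2st1 (0.08), Dlgap4 (0.09), Slc22a23 (0.10), Wdfy2 (0.10) and Mark3 (0.11), whose changes in wild-type lay between 0.04 and 0.31 without passing, and of which only Slc22a23 passed in SUMO-KD (0.41, adjusted p = 0.0237). Closeness here means a like size of change over the same arrays.

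Other cell types that the dissected tissue could hold were read from their markers. The 10 measured neuronal markers summed to 31196 to 33748 in sham and 31317 to 35101 in ischemia arrays of wild-type, and to 29164 to 31780 and 31085 to 33210 in SUMO-KD, with overlap in each genotype. The 8 measured astrocyte markers ranged from 20092 to 24083 and 20339 to 23939 in wild-type and from 24631 to 26491 and 23284 to 25261 in SUMO-KD, sham before ischemia. Of 8 measured microglial markers, 3 fell in each genotype (8.88% and 4.62% of all genes). P2ry12 (by 1.35 and 1.02) and Tmem119 fell in both, and the remaining gene was not the same in the genotypes. The microglial sums went from 5907 to 6653 against 5215 to 5676 in wild-type and from 6204 to 6418 against 5047 to 5491 in SUMO-KD. Of 7 measured endothelial markers, 1 rose (9.59% and 6.08% of all genes) and 2 fell (8.88% and 4.62%) in each genotype. The endothelial sums went from 4200 to 4424 against 3235 to 3932 in wild-type and from 3705 to 4443 against 3082 to 3331 in SUMO-KD. The 4 measured blood markers summed to 226 to 416 in sham and 360 to 394 in ischemia arrays of wild-type. For SUMO-KD these sums were 187 to 267 on sham arrays and 347, 358 and 1252 on ischemia arrays, so the top value came from a single array. With ischemia S100a9 alone of the 4 passed, and only in SUMO-KD (1.70, adjusted p = 0.0291, limma). S100a8 had 1.65 there (adjusted p = 0.0553), above all sham arrays. Their wild-type values were 0.49 for S100a9 and 0.63 for S100a8, without passing. Itgam and Hba-a1 averaged below 32 in every group, and no marker was at exactly 0. The part of these cell types in the chaperone rises was not tested.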

How the data were processed

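Total RNA of 12 CA1 pools was measured on Affymetrix arrays. The authors deposited linear intensity values for every probe set, and which step scaled them is not stated in these sources. Partek 6.6 and RMA are named in the submitters' processing notes, and RMA output would be on a log2 scale, while these values ran from below 1 to 24136. Each array's mean after trimming was 500.2. Probe sets were named from the platform annotation, and control probe sets were left out. Each gene was read from its brightest probe set by mean log2(intensity + 32), for 12393 genes. limma 3.58.1 (R 4.3.3; lmFit, eBayes) fitted group means to all 12 arrays, two-sided, with Benjamini-Hochberg adjustment over all genes. All probe sets but controls (22626) were also fitted singly. Changes are on the log2(intensity + 32) scale, which understates those of dim genes.

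The members, lists and offset were chosen with earlier results of these data known. The rule for names took all members, up to 4 called genes per chaperone list by size and at most 2 called genes per marker list. It also took the 5 nearest profiles outside the members for Hspa1a and for Hspa8. Alternatives covered the offset, probe set choice, dim genes, scaling, samples fitted, moderation and each omitted array; the closing section gives their effect. The procedure was tested on simulated data. Promoter sequences are RefSeq's (GRCm38.p6).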

Additional observations from a re-analysis of the deposited data

How the results depend on the processing

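Results were recomputed under 24 alternatives (23 for the difference in response). The ischemia rises of Hspa1a, Hspb1, Hsph1, Dnajb1, Dnaja1 and Bag3 kept direction and call in both genotypes under each alternative run. Leaving out one array gave 6 to 7 members called in wild-type, 6 to 8 in SUMO-KD, 0 to 1 between genotypes in sham and after ischemia, 0 to 0 for the difference in response, and 13 to 21 (wild-type) and 6 to 13 (SUMO-KD) other chaperone genes. The sham call of 1 gene (Dnajb1) became 0 with averaged probe sets or the compared groups only. The call of 1 gene after ischemia (Bag3) became 0 with no offset, an offset of 16, every probe set by itself or the compared groups only. The 8 members called in SUMO-KD became 6 under quantile normalization or with the compared groups only, through Hspa8 and Hsp90aa1, and the 7 in wild-type became 6 with the compared groups only. The 13 other chaperone genes in SUMO-KD became 7 with the compared groups only. Same-numbered arrays did not deviate together in every pair (correlations over genes from −0.166 to 0.247) and were not treated as pairs. With the replicate number as a block they became 11, while the wild-type count was 21 and member counts were 7 and 8 for ischemia and 1 and 1 between genotypes.

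The values that changed sign had not passed. Between genotypes after ischemia, Hspa8 (0.03) became −0.30 with averaged probe sets, −0.92 without _x_at and _s_at probe sets and −0.15 under quantile normalization, with −0.064 to 0.099 over omitted arrays. Its difference in response became −0.66 without _x_at and _s_at probe sets. Hsp90aa1 (0.01 after ischemia) became −0.12 under quantile normalization and −0.013 with median centring (omissions −0.023 to 0.038). In sham Hsp90aa1 became 0.027 under quantile normalization (omissions −0.053 to 0.016), and its difference in response −0.14 (omissions −0.008 to 0.062). Cryab after ischemia became 0.008 with averaged probe sets (omissions −0.176 to 0.061), and in wild-type 0.005 under quantile normalization (omissions −0.188 to 0.074). The Hsph1 difference in response became −0.046 with averaged probe sets (omissions −0.039 to 0.226). Omissions also gave −0.042 to 0.107 for Bag3 and −0.273 to 0.031 for Hspb1 in sham, and −0.12 to 0.025 for the Dnaja1 difference in response. The cause was not tested. The brightest Hspa8 probe set lay near the top of the range of the arrays, and whether this affected its values was not tested. Having 3 arrays a group limits what can be resolved.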

Other observations

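Within the marker lists single genes moved apart from the rest. Of 4 measured dentate granule cell markers, Prox1 rose by 1.03 and Calb1 fell by 0.61 in wild-type (limma), Dsp and Tdo2 had −0.22 and −0.34, and the list median was −0.28. In SUMO-KD Calb1 fell by 0.36, Prox1 had 0.20 and the median was −0.51. Of 8 astrocyte markers, Gfap alone passed, with a rise of 0.77 in wild-type, and it had 0.38 in SUMO-KD (adjusted p = 0.0934), while the list medians were 0.01 and −0.05. In SUMO-KD, 3 of the 8, Aqp4 (−0.28), Slc1a3 (−0.32) and S100b (−0.24), had ischemia arrays below all sham arrays without passing, beside 15.9% of all genes. Gfap had them above all sham arrays there, beside 13.9% of all genes.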
